A study of Mus musculus with 54 samples.

Results

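Gene expression was compared between hippocampus and striatum of adult male mice, on 18 hippocampus arrays against 18 striatum arrays, 36 of the 54 arrays of a study that also measured brainstem on 18 arrays. The arrays were chosen by the tissue named in their labels, and strain and testing entered the comparison as blocks. The study asked how brain expression relates to prepulse inhibition, in which a quiet sound ahead of a loud one reduces the startle, in strains that differ in it. Each tissue held the same 6 strains, C57BL6/J, C57BL10/J, C57L/J, C57BLKS/J, BalbC/J and C3H HeJ, with 3 arrays per strain: 1 array from mice tested for prepulse inhibition around postnatal day 50 and 2 arrays from untested mice, all killed on postnatal day 60. Each array carried a pool of RNA from 3 mice, with the hemispheres alternated. A strain had 12 mice, 6 of them tested, so the hippocampus and striatum pools of a strain would share animals, and the p-values below take the 36 arrays as independent.

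The hippocampus is built mainly of glutamatergic principal cells, the granule cells of the dentate gyrus and the pyramidal cells of the CA fields, which arise in the pallium, the dorsal part of the embryonic forebrain. The striatum is built mainly of GABAergic spiny projection neurons, which arise in the subpallium below it. Spiny neurons of the direct pathway carry the D1 dopamine receptor, those of the indirect pathway the D2 receptor, and both receive dense dopamine input from the midbrain.

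Values below are levels on the log2 scale as deposited, 1 probe set per gene, and differences are hippocampus minus striatum on that scale, with the standard error (SE) of the limma fit. Of 18193 genes with a probe set, 12788 lay above the 40th percentile of an array on at least 3 arrays of either tissue and were tested. Arrays of the same tissue correlated at 0.994 or more in hippocampus and 0.985 or more in striatum, and those of different tissues at 0.953 to 0.973. The marker lists matched the labels on every array: the mean level of the spiny neuron list lay between 7.69 and 7.84 on hippocampus arrays and between 11.61 and 12.65 on striatum arrays, and that of the glutamatergic list between 10.98 and 11.19 on hippocampus arrays and between 6.56 and 9.53 on striatum arrays. Within striatum, 4 arrays stood apart with a glutamatergic mean over 8, namely the tested BalbC/J array, untested C57BLKS/J array 2 and untested C57L/J arrays 1 and 2, and untested C57L/J array 2 was also the lowest striatum array in spiny neuron genes. The mean of the cortex list, which shares Fezf2 with the glutamatergic list, was 7.93, 7.67, 7.47 and 8.25 on these 4 arrays, in the same order, against 6.89 to 7.81 on the other 14 striatum arrays. The cortex list also shares Foxp2 with the spiny neuron list. The part of cortex in these arrays was not tested.

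Most of the measured genes differed between the tissues. At an adjusted p under 0.05, 11171 of 12788 genes (87.4%) were called, 8125 (63.5%) higher and 3046 (23.8%) lower in hippocampus. Over 2-fold, 1967 genes (15.4%) were higher and 810 (6.33%) lower, and the arrays of the 2 tissues did not overlap for 3380 genes (26.4%) higher and 1124 genes (8.79%) lower in hippocampus. The median difference over all tested genes was 0.25. Counts for the gene lists below are to be read beside these shares of all genes. The counts in each direction depended on the scale of the arrays, because the array medians lay between 4.52 and 4.72 in hippocampus and between 4.17 and 4.31 in striatum. With every array centred on its median, 4455 genes were called higher and 6425 lower, with a median difference of -0.11, and with quantile normalization 5430 were called higher and 5576 lower. Counts over 2-fold moved as well, to 1310 higher and 1289 lower after centring and to 1400 higher and 1173 lower with quantile normalization. Of the genes over 2-fold, 1228 higher and 715 lower ones were so under all 4 scalings tried. Whether the tissues were normalized together is not stated in the sources used here, and these counts depend on it. Without the 4 striatum arrays high in glutamatergic genes, 2027 genes were over 2-fold higher and 853 over 2-fold lower. The array measures RNA of whole tissue, so fewer cells of a type and less RNA per cell cannot be told apart in any of the differences that follow.

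**Figure D1:**
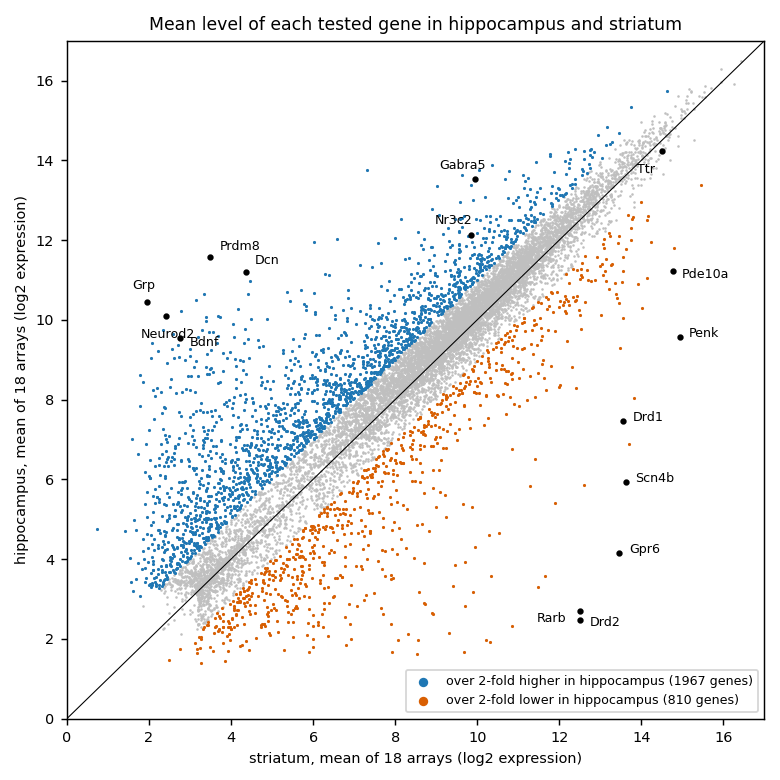
Mean level of each of the 12788 tested genes over 18 hippocampus arrays (vertical axis, log2) against 18 striatum arrays (horizontal axis, log2), with the line of equal level. Blue points are the 1967 genes over 2-fold higher and orange points the 810 genes over 2-fold lower in hippocampus, and Drd2, Rarb and Gpr6 lie farthest below the line.

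Ranked by measured difference among genes whose arrays did not overlap, Grp, which encodes gastrin-releasing peptide, stood first on the side higher in hippocampus. Its level was 10.04 at the lowest, 10.44 at the median and 10.78 at the highest on hippocampus arrays, against 1.90, 1.94 and 2.04 on striatum arrays. The striatum values lay below the 40th percentile on every array, so Grp was at least 154-fold higher in hippocampus (measured difference 8.51 ± 0.05, limma adjusted p = 4.22e-44), and its rank over other genes rests on values at that low end. That bound, like the other "at least" folds below, holds on the deposited scale and was not computed after centring. Prdm8, a transcriptional regulator of the PRDM family, had 11, 11.62 and 11.95 in hippocampus and 2.91, 2.98 and 6.98 in striatum, a difference of 8.08 ± 0.22. Neurod2, a proneural basic helix-loop-helix factor of maturing glutamatergic neurons, had 9.74, 10.15 and 10.27 in hippocampus and 1.81, 1.83 and 6.62 in striatum (7.67 ± 0.27). For both genes the highest striatum value came from untested C57L/J array 2, one of the 4 arrays with high glutamatergic means, and their part in the level was not tested. Grm2, the mGlu2 receptor that dampens transmitter release, and Bdnf, the neurotrophin, showed the same spread. Grm2 had 9.39, 9.65 and 10.10 in hippocampus against 2.09, 2.1 and 6.11 in striatum (7.07 ± 0.23), and Bdnf 8.56, 9.64 and 10.10 in hippocampus against 2.13, 2.21 and 5.64 in striatum (6.77 ± 0.23). No striatum value of these 5 genes reached the lowest hippocampus value, which the rule that chose them required.

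The other genes among the 15 highest were Syt17 (7.44 ± 0.24), Lct (at least 94.0-fold), Gpr161 (7.36 ± 0.06), C1ql2 (at least 75.3-fold), Tafa1 (7.31 ± 0.25), Rasd1 (7.01 ± 0.09), Dusp4 (at least 64.8-fold), Slc26a4 (at least 43.2-fold), Dcn (6.84 ± 0.15) and Spink8 (6.72 ± 0.11). Gpr161 encodes an orphan receptor of primary cilia, Dusp4 a phosphatase of MAP kinases, and Dcn the matrix proteoglycan decorin, which is abundant in the meninges. Several measured differences rest on low striatum levels: Rasd1 lay above the 40th percentile on 1 of the 18 striatum arrays, Spink8 on 2, Neurod2 and Grm2 on 3, Syt17 and Bdnf on 4, Prdm8 and Tafa1 on 5, and Gpr161 on 8. For Gpr161 and Dcn a second probe set differed by 0.54 and 0.07 only, so the size of both differences rests on 1 probe set, while second probe sets of Neurod2 (7.97), Syt17 (6.42) and Bdnf (4.7) showed large differences too. The remaining probe set of Neurod2 differed by 0.07.

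**Figure D2:**
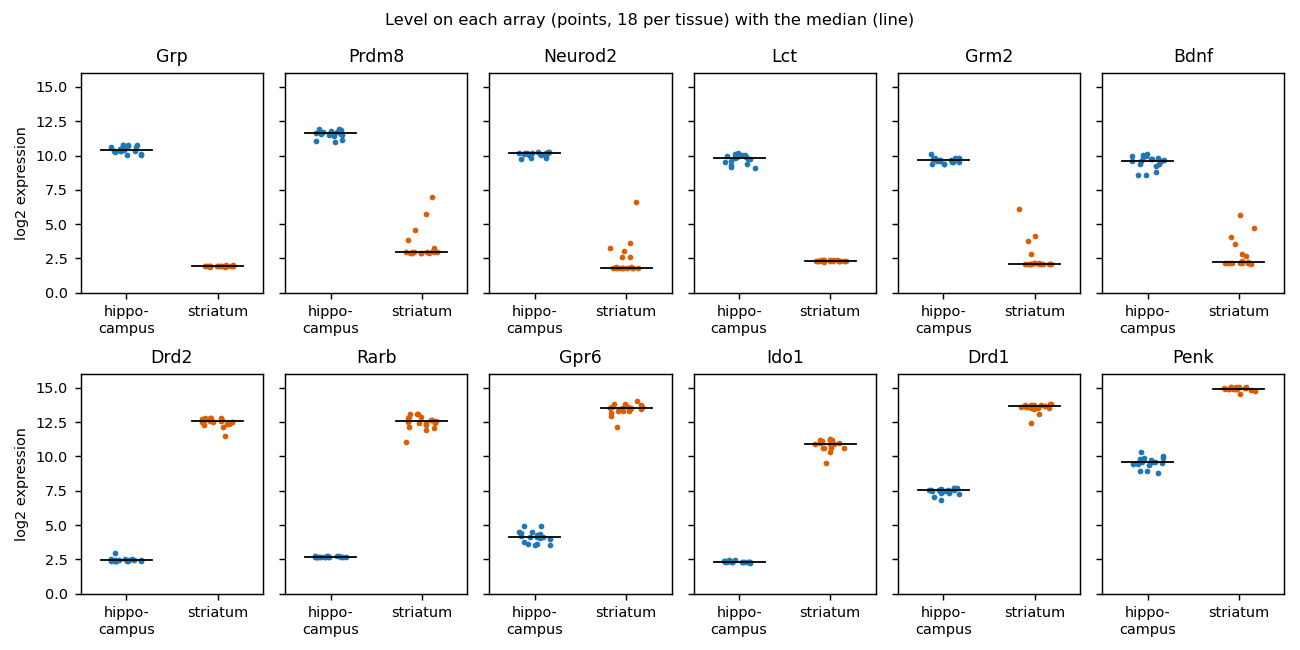
Level of 12 genes on each of the 18 hippocampus arrays (blue) and 18 striatum arrays (orange), in log2 units, with the median of each tissue as a line. Upper row, 6 genes higher in hippocampus, of which Prdm8, Neurod2, Grm2 and Bdnf had a few raised striatum arrays; lower row, 6 genes lower in hippocampus, all without overlap.

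Genes that mark the principal cells of the hippocampus were higher in it with few exceptions. All 14 listed markers of dentate granule cells were tested, and 11 were called higher and 3 lower, 10 of them over 2-fold higher and 1 over 2-fold lower, with a median difference of 2.40 beside 0.25 for all genes. After centring, 10 were called higher and 4 lower. Prox1, the homeobox factor that specifies granule cells, had 8.65, 8.94 and 9.48 in hippocampus against 3.95, 4.17 and 4.90 in striatum (4.78 ± 0.08, limma adjusted p = 8.76e-33). Dsp, the desmosomal protein desmoplakin, had 9.06, 10.04 and 10.64 in hippocampus against 3.23, 3.37 and 3.67 in striatum (6.58 ± 0.09). The tissues stood far apart for both genes. C1ql2, a secreted C1q-like protein of mossy fibre synapses, had 8.44, 9.50 and 10.45 in hippocampus and 2.04, 2.08 and 2.16 in striatum, and Glis3, a zinc finger factor, differed by 3.13 ± 0.06. The 3 markers called lower before centring were Plk5 (-1.32), Calb1 (-0.68), the calcium buffer calbindin that spiny neurons also carry, and Nrgn (-0.16), neurogranin.

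Of the 18 tested markers of CA pyramidal cells, 15 were called higher and 2 lower, 12 and 2 of them over 2-fold, with a median of 2.51. After centring, 12 were called higher and 3 lower. Spink8, a protease inhibitor gene marking CA1, had 8.67, 9.31 and 9.72 in hippocampus and 2.00, 2.42 and 3.59 in striatum. Homer3, a postsynaptic scaffold protein, was at least 24.2-fold higher, with 7.36, 7.84 and 8.15 in hippocampus against 2.22, 2.41 and 2.44 in striatum. Grik4, a kainate receptor subunit of CA3, differed by 4.02 ± 0.07. The CA2 marker Amigo2 differed by 3.98 ± 0.05, although a second probe set of it differed by 0.16. The 2 genes called lower before centring were Coch (-5.75) and Pcp4 (-2.08 ± 0.04), a calmodulin regulator that marks CA2 within the hippocampus, for which the levels were 13.12, 13.33 and 13.82 in hippocampus and 15.13, 15.47 and 15.60 in striatum.

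Among 16 tested genes of glutamatergic neurons, 14 were called higher, all 14 over 2-fold, and 2 lower, with a median of 3.50. They include the vesicular glutamate transporters Slc17a7 (3.86) and Slc17a6 (6.24), which load glutamate into synaptic vesicles. Slc17a6, and Lef1 named below, also stand in the thalamus list, which was higher in hippocampus and is described further on. The 2 lower genes, Camkv (-0.34) and Lmo3 (-0.25), differed by less than 2-fold. All 16 tested pallial transcription factors were called higher, 15 over 2-fold, with a median of 2.49, and 9 of them also stood in the glutamatergic list. Emx1, which patterns the pallium, had 6.73, 6.89 and 7.05 in hippocampus and 2.21, 2.24 and 3.17 in striatum (4.61 ± 0.05), though its second probe set differed by -0.07. Its relative Emx2 differed by 2.01 ± 0.06. Lhx2, a selector gene of hippocampus and cortex, had 10.10, 10.49 and 10.70 in hippocampus against 7.89, 8.24 and 8.59 in striatum (2.24 ± 0.04), so striatum kept a measurable level. Lhx9 (5.06 ± 0.06), Lef1 (1.82 ± 0.02), the effector of canonical Wnt signalling, and Zbtb18 (1.70 ± 0.05) were higher as well. No hippocampus array overlapped a striatum array for any of these 6 factors.

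Promoter windows are shown for Neurod2 and Prdm8, since both lie among the 15 highest genes and hold an E-box, the motif that proneural factors such as Neurod2 bind. Each window runs from 250 bases before to 50 after the start of the gene in RefSeq's GRCm38.p6 annotation. The Neurod2 window is chr11:98329596-98329895 on the minus strand, with CAGATG in capitals. The Prdm8 window is chr5:98180619-98180918 on the plus strand, with CAGCTG and then CATCTG, the reverse complement of CAGATG, in capitals.
Neurod2: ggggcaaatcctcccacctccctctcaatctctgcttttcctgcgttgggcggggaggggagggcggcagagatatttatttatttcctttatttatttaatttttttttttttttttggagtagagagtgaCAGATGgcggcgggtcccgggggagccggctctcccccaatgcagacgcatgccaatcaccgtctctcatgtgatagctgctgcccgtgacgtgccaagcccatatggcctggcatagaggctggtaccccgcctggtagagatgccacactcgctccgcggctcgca
Prdm8: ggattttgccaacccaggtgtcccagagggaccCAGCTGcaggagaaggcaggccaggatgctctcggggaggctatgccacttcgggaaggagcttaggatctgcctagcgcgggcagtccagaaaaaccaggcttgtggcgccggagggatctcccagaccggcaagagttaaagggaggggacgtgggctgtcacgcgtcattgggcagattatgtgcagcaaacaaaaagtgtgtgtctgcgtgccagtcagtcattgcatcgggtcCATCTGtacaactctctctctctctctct
CAGATG was searched on both strands and CAGCTG is its own reverse complement, and the 2 motifs do not overlap here. CAGATG stood in 17.2% of 32851 windows, or for 19.2% of 27025 genes in at least 1 window. Among the 9 highest genes with a window it stood in 4 (Bdnf, Gpr161, Neurod2 and Prdm8). CAGCTG stood in 16.3% of windows and for 18.3% of genes, and in 2 of those 9 (Bdnf and Prdm8). None of the 9 windows of the lowest genes held CAGATG, and 1 of them, that of Isl1, held CAGCTG. The matches describe letters in these windows and show no binding.

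On the other side of the comparison, Drd2, the D2 dopamine receptor of indirect pathway neurons, stood first by measured difference. Its level was 2.39, 2.42 and 2.99 on hippocampus arrays (lowest, median and highest) and 11.51, 12.57 and 12.81 on striatum arrays. It lay below the 40th percentile on all hippocampus arrays and was at least 583-fold lower there (measured difference -10.05 ± 0.08, limma adjusted p = 1.54e-41). Rarb, a retinoic acid receptor needed for spiny neuron development, was at least 576-fold lower, with 2.68, 2.70 and 2.76 in hippocampus and 11.03, 12.55 and 13.07 in striatum. Gpr6, a constitutively active receptor of indirect pathway neurons, had 3.54, 4.12 and 4.96 in hippocampus and 12.19, 13.53 and 14.04 in striatum (-9.30 ± 0.11). It was measured in both tissues, and its difference was as large as the bounds of Drd2 (-9.19) and Rarb (-9.17), so the order of these 3 genes is not settled. The lowest striatum value of all 3 genes was that of untested C57L/J array 2, and even it lay far above every hippocampus array.

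The remaining 12 of the 15 lowest genes were Ido1 (at least 182-fold lower in hippocampus), Sh3rf2 (128-fold), Serpina9 (119-fold), Slc35d3 (-8.17 ± 0.08), Rasgrp2 (-8.07 ± 0.10), Gm6556 (at least 81.0-fold), Scn4b (-7.71 ± 0.11), Tlnrd1 (at least 63.8-fold), Isl1 (at least 37.1-fold), Six3 (at least 83.1-fold), Syndig1l (-6.82 ± 0.08) and Nexn (-6.75 ± 0.09). Scn4b, a beta subunit of sodium channels, had 5.25, 5.82 and 6.94 in hippocampus and 12.11, 13.97 and 14.26 in striatum, while its median in brainstem was 12.27. Slc35d3 lay above the 40th percentile on 5 of the 18 hippocampus arrays. Isl1, the homeobox factor of direct pathway neurons, had 1.56, 1.61 and 1.70 in hippocampus and 7.09, 8.62 and 8.98 in striatum. Six3, a forebrain homeobox factor, rests on 1 probe set, since a second one differed by 0.03, whereas the second probe sets of Isl1 (-5.94), Syndig1l (-6.86) and Gm6556 (-5.4) also showed large differences. Smaller differences came from the second probe set of Tlnrd1 (-2.84) and the other probe sets of Rasgrp2 (-3.41, -5.67 and -1.14). The size given for Tlnrd1 and Rasgrp2 thus depends on the probe set.

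Every one of the 24 tested spiny neuron genes was called lower in hippocampus, 23 of them over 2-fold, with a median difference of -3.87 beside 0.25 for all genes. The exception to the 2-fold mark was Bcl11b (-0.81), a zinc finger factor that hippocampal neurons also express. Ppp1r1b, which encodes the dopamine-regulated phosphatase inhibitor DARPP-32, had 7.49, 8.03 and 8.62 in hippocampus and 12.98, 13.88 and 14 in striatum (-5.79 ± 0.08, limma adjusted p = 6.26e-35). Pde10a, the striatal cyclic nucleotide phosphodiesterase, had 10.87, 11.23 and 11.42 in hippocampus and 14.41, 14.82 and 14.96 in striatum (-3.55 ± 0.04). Hippocampus thus held a clear level of Pde10a, unlike Drd2 or Rarb. Rgs9, which shortens G protein signals downstream of dopamine and opioid receptors, differed by -6.74 ± 0.08, and Foxp2, a forkhead factor, by -6.49 ± 0.09.

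Markers of both output pathways were lower in hippocampus. Of 8 tested direct pathway genes 7 were called lower, 6 over 2-fold, and 1 higher (Eya1, 0.40), with a median of -3.66. Drd1 had 6.85, 7.54 and 7.74 in hippocampus and 12.41, 13.64 and 13.83 in striatum (-6.10 ± 0.09). Pdyn, which encodes the dynorphin precursor, had 4.2, 4.23 and 4.29 in hippocampus against 6.68, 7.70 and 8.12 in striatum (-3.45 ± 0.07). All 3 tested indirect pathway genes, Drd2, Gpr6 and Penk, were over 2-fold lower. Penk, which encodes the enkephalin precursor, had 8.77, 9.58 and 10.35 in hippocampus and 14.57, 14.95 and 15.07 in striatum (-5.38 ± 0.08).

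The subpallial transcription factors moved the same way, with 16 of 19 tested genes called lower, 15 over 2-fold, and a median of -3.61. This list is not independent of those above: Rarb, Foxp2, Bcl11b and Rxrg, among others, also stand in the spiny neuron list, and Isl1 in the direct pathway list. Besides Rarb, Isl1, Six3 and Foxp2, Meis1 was lower (-5.81 ± 0.09), with 2.71, 2.86 and 3.43 in hippocampus and 7.42, 8.68 and 9.51 in striatum. Dlx1 (1.27), Dlx2 (0.59) and Lhx6 (0.58), which also act in cortical and hippocampal interneurons, were called higher. Lhx8, a LIM homeobox factor of striatal cholinergic interneurons, was at least 38.2-fold lower in hippocampus, with 2.98, 3.15 and 3.37 there and 5.87, 8.74 and 9.13 in striatum. The enzyme of acetylcholine synthesis, Chat, averaged 1.51 in hippocampus and 1.58 in striatum and lay too low to be tested. Of the 9 listed genes of cholinergic neurons, 2 were tested, Lhx8 and Tacr3 (-0.28), which did not pass.

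Windows of Gpr6 and Drd2 are shown as 2 of the 3 genes with the largest negative measured differences, again from RefSeq GRCm38.p6. The Gpr6 window is chr10:41072241-41072540 on the minus strand, with the palindromic cAMP response element TGACGTCA in capitals. The Drd2 window is chr9:49340153-49340452 on the plus strand and held none of the motifs searched.
Gpr6: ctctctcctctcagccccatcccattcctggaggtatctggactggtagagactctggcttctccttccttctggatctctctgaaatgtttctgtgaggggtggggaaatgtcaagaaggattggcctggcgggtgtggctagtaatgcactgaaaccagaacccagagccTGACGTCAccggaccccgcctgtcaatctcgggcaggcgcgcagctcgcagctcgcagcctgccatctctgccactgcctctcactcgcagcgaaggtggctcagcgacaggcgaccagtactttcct
Drd2: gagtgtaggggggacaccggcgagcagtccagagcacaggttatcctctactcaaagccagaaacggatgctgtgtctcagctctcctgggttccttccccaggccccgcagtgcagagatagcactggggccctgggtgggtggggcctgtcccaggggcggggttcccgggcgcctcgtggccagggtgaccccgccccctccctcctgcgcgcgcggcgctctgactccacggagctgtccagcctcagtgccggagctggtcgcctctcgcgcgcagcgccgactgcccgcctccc
TGACGTCA stood in 1.79% of all windows, or for 2.03% of genes, and, among the 9 lowest genes with a window, in that of Gpr6 alone. A direct repeat of GTTCA with any 5 bases between its copies was searched on both strands and stood in 0.0396% of windows and in none of these 18. Whether these windows hold sites of retinoic acid receptors was not tested.

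**Figure D3:**
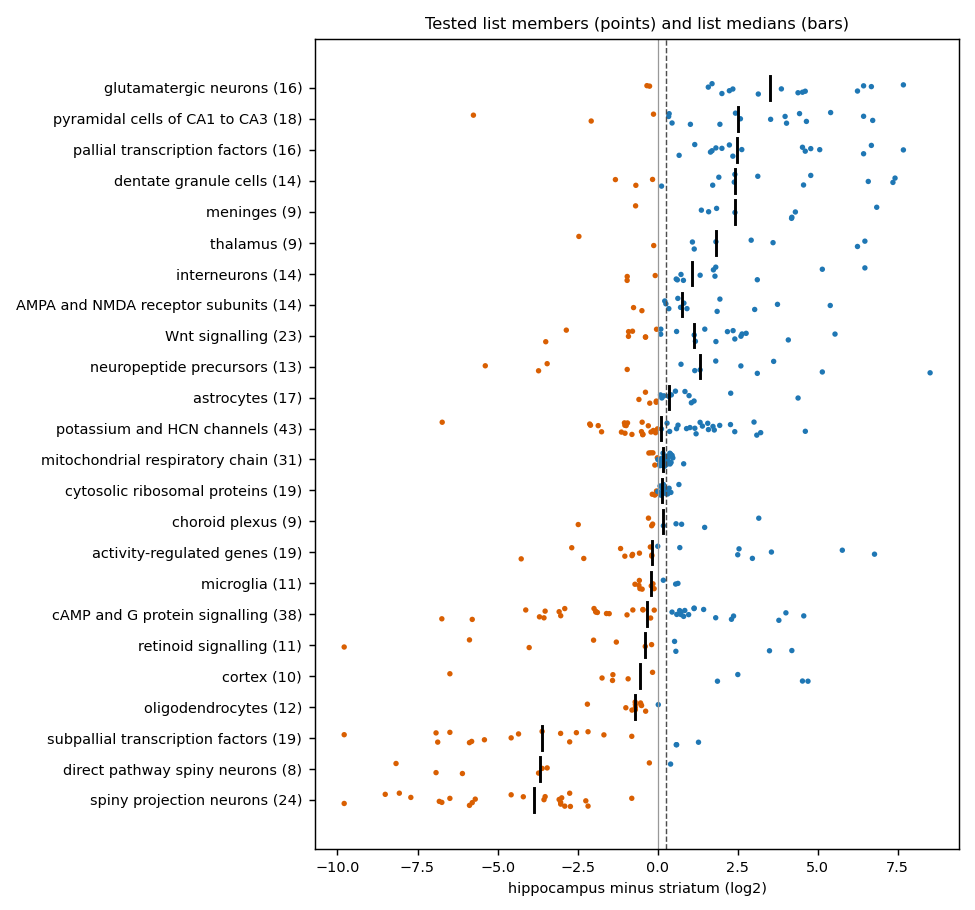
Difference, hippocampus minus striatum (log2), of every tested member of 24 gene lists (points, blue above 0 and orange below; number tested in brackets), with the list median as a black bar and the median of all 12788 genes, 0.25, as a dashed line. Glutamatergic and pallial lists lie right of the line and spiny neuron and subpallial lists left of it, while ribosomal and mitochondrial genes stay near it.

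Beyond the 2 receptors, dopamine handling differed by less than 2-fold. Of 12 listed genes 6 were tested, 3 called higher and 3 lower, and after centring 0 were called higher and 3, Drd1, Drd2 and Ddc, lower. Maoa, a monoamine oxidase, had 8.73, 9.07 and 9.30 in hippocampus against 8.25, 8.65 and 8.92 in striatum (0.41 ± 0.04, or 0.05 after centring), and Maob, the related enzyme, differed by 0.28 ± 0.06, or -0.08 after centring. The vesicular monoamine transporter Slc18a2 ranged from 5.08 to 8.92 in hippocampus and from 3.37 to 9.72 in striatum (0.53 ± 0.21, limma adjusted p = 0.0231, or 0.16 after centring), and the decarboxylase Ddc differed by -0.24 ± 0.07. Drd3, Drd4, Th and Slc6a3 lay too low to test, with means of 1.84 to 2.84 in hippocampus and 1.88 to 2.76 in striatum.

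Genes of cAMP and G protein signalling split between the tissues. Of 38 tested, 17 were called higher, 9 over 2-fold, and 21 lower, 15 over 2-fold, with a median of -0.34. The lower ones included the striatal adenylyl cyclase Adcy5 (-3.08), the olfactory-type G protein subunit Gnal (-2.90), its partner Gng7 (-3.03) and the phosphodiesterases Pde7b (-4.12 ± 0.06) and Pde1b (-3.52). The higher ones included the calcium-stimulated cyclases Adcy8 (4.56) and Adcy1 (2.30) and the phosphodiesterases Pde4a (4.0) and Pde1a (3.78). Each tissue thus had cyclases and phosphodiesterases at a higher level than the other.

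Calcium-dependent kinases and phosphatases split as well, with 14 of 26 called higher, 8 over 2-fold, and 10 lower, 5 over 2-fold, or 12 each way after centring. Prkca, a conventional protein kinase C, had 11.70, 11.88 and 12.12 in hippocampus and 9.65, 10.10 and 10.44 in striatum (1.79 ± 0.04). Camk4, which phosphorylates the factor CREB in the nucleus, had 10.71, 10.90 and 11.31 in hippocampus and 12.76, 13.17 and 13.33 in striatum (-2.16 ± 0.05). Prkch, another protein kinase C, was at least 48.3-fold lower in hippocampus.

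Of 14 tested subunits and partners of AMPA and NMDA receptors 12 were called higher and 2 lower, 5 and 0 of them over 2-fold, with a median of 0.77, and 9 were higher and 4 lower after centring. Grin2a, an NMDA receptor subunit of mature synapses, was at least 5.60-fold higher, with 5.18, 5.68 and 6.38 in hippocampus and 1.87, 1.93 and 2.00 in striatum. Grin3a differed by 3.03 ± 0.14, and Cnih2, an AMPA receptor auxiliary protein, by 0.91 ± 0.05. The AMPA receptor subunits Gria1 (0.82), Gria2 (0.35), Gria3 (0.26) and Gria4 (0.22) were called higher by less than 2-fold, and after centring Gria2 (-0.01), Gria3 (-0.11) and Gria4 (-0.14) lay below 0. Kainate receptor genes divided into 2 higher, Grik4 and Grik1 (3.35 ± 0.19), and 5 lower, with Neto2, an auxiliary subunit, at -1.65 ± 0.05. Among 9 metabotropic receptors and their scaffolds, 4 were higher, Grm2 among them, and 4 lower, including the scaffold Homer1 (-1.03 ± 0.04) and the receptor Grm3 (-1.26 ± 0.05).

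Of 9 tested GABA-A receptor subunits 6 were called higher, 3 over 2-fold, and 3 lower, 2 over 2-fold. The share of all genes called higher was 63.5%, and after centring 5 subunits were higher and 3 lower. Gabra5, the subunit of extrasynaptic receptors of pyramidal cells, had 13.14, 13.55 and 13.74 in hippocampus and 9.34, 9.92 and 10.76 in striatum (3.57 ± 0.08, limma adjusted p = 2.20e-28). Gabrg3 (-2.52 ± 0.08), Gabra4 (-0.78 ± 0.04) and Gabrd (-3.22 ± 0.08) were lower, the last with a second probe set at -0.03. Of 6 tested genes for GABA synthesis and transport 5 were lower, 1 of them over 2-fold, and 1 higher: Gad1, which makes GABA, had 14.22, 14.36 and 14.51 in hippocampus and 14.68, 14.92 and 15.03 in striatum (-0.53 ± 0.03), Slc32a1, the vesicular GABA transporter, differed by -1.99 ± 0.08 with a second probe set at 0.41, and the glial transporter Slc6a11 by 1.99 ± 0.13. The difference in Gad1, whose level was high in both tissues, was small beside the median of 3.50 over the glutamatergic genes.

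Serotonin receptors went both ways. Of 7 tested, 4 were over 2-fold higher, and of the 3 lower ones 2 were over 2-fold. Htr5b was at least 6.19-fold higher, with 5.30, 5.79 and 6.25 in hippocampus and 2.18, 2.25 and 2.31 in striatum. Htr7 differed by 2.57 ± 0.05, with a second probe set at 0.04. Htr1b and Htr1d, inhibitory receptors found on axon terminals, were lower: Htr1b had 8.04, 8.54 and 9.04 in hippocampus and 9.95, 11.71 and 12.26 in striatum (-3.09 ± 0.11), and Htr1d was at least 7.68-fold lower. All 5 tested acetylcholine receptors were called higher, 3 of them over 2-fold, but after centring 3 were called higher and 2, Chrm1 (-0.18, second probe set -1.76) and Chrnb2 (-0.20), lower. Chrna4, a subunit of the common high-affinity nicotinic receptor, had 7.82, 7.92 and 8.06 in hippocampus and 4.48, 4.52 and 4.67 in striatum (3.39 ± 0.02), and Chrna7 differed by 1.59 ± 0.04.

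Of 13 tested neuropeptide precursors 9 were called higher, 8 over 2-fold, and 4 lower, 3 over 2-fold, beside 63.5% of all genes called higher. The lower ones were Penk, Tac1 (-3.72 ± 0.08), Pdyn and Npy (-0.95 ± 0.06), and a second probe set of Tac1, the substance P precursor, differed by -0.18. Npy had 10.03, 10.66 and 10.90 in hippocampus and 11.05, 11.45 and 12.07 in striatum. The higher ones besides Grp were Pnoc (at least 5.94-fold), Adcyap1 (2.6 ± 0.07), Cck (3.11 ± 0.33), Vip (5.14 ± 0.45), Tac2 (1.81 ± 0.19), Crh (1.33 ± 0.32), Nts (1.2 ± 0.26) and Sst (0.73 ± 0.08). Cck, the cholecystokinin precursor, had 12.91, 13.03 and 13.16 in hippocampus and 7.99, 9.71 and 12.85 in striatum, and Vip 9.49, 9.98 and 10.77 in hippocampus and 2.61, 4.15 and 10.13 in striatum. The 4 highest striatum arrays of Vip were those 4 with high glutamatergic means, among them untested C57L/J array 2 at 10.13, inside the hippocampus range.

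Of 17 peptide and related receptors 12 were called higher, 8 over 2-fold, and 3 lower, 2 over 2-fold, beside 63.5% of all genes higher, and 10 were higher and 6 lower after centring. Npy2r, a presynaptic receptor of neuropeptide Y, had 9.69, 10.31 and 10.56 in hippocampus and 2.94, 4.2 and 5.28 in striatum (6.10 ± 0.12), and Npy1r (3.15 ± 0.09) and Npy5r (1.66 ± 0.05) were higher too, while the RNA of the precursor gene Npy was lower. Oprk1, the kappa opioid receptor of dynorphin, was at least 47.6-fold lower, with 2.46, 2.63 and 2.86 in hippocampus and 7.92, 9.0 and 9.51 in striatum. Its ligand gene Pdyn, given above, was lower as well.

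Among 19 neurotrophic factors and receptors 16 were called higher, 8 over 2-fold, and 3 lower, 2 over 2-fold, beside 63.5% of all genes called higher. After Bdnf came Igf1, insulin-like growth factor, with 6.90, 7.76 and 8.0 in hippocampus and 2.76, 2.95 and 4.97 in striatum (4.57 ± 0.12, second probe set 0.12). Fgf13 (1.64 ± 0.04) was higher and Nrg1, the neuregulin ligand, lower (-1.78 ± 0.06). The neurotrophic counts became 10 higher and 6 lower after centring. Of 43 potassium and HCN channel genes 22 were higher, 16 over 2-fold, and 19 lower, 9 over 2-fold, or 19 higher and 22 lower after centring. Kcna5, a voltage-gated channel subunit, had 2.90, 3.07 and 4.44 in hippocampus and 7.87, 10.11 and 10.53 in striatum (-6.73 ± 0.17), and Kcnc4 differed by 4.61 ± 0.19 the other way. The 20 sodium and calcium channel genes divided evenly, 9 higher and 9 lower, or 6 and 11 after centring, with the calcium channel subunits Cacna2d1 (1.08 ± 0.04) higher and Cacna2d2 (-1.50 ± 0.05) and Cacna2d3 (-1.14 ± 0.05) lower.

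Of 11 tested retinoid genes 4 were called higher, 2 over 2-fold, and 7 lower, 5 over 2-fold. Rarb and Rxrg, among the lower ones, were also counted in the spiny neuron and subpallial lists. The receptors Rarb and Rxrg were lower in hippocampus, Rxrg with 4.36, 4.64 and 4.77 there and 9.34, 10.60 and 11.12 in striatum (-5.88 ± 0.09), and so were the binding proteins Crabp1 (at least 11.7-fold) and Rbp4 (-2.0) and the receptor Rarg (-1.29). The receptor Rxra differed by 0.53 and its relative Rxrb by -0.39. The enzyme that makes retinoic acid, Aldh1a2, was at least 12.4-fold higher in hippocampus, with 5.51, 6.97 and 7.61 there and 2.55, 2.63 and 2.84 in striatum, and Cyp26b1, which degrades it, was higher by 3.49 ± 0.07, while the enzymes Dhrs3 (0.57) and Aldh1a1 (-0.19) differed by less than 2-fold. Aldh1a2 is also a meningeal gene, and the meninges list, described further on, was higher in hippocampus.

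Of 23 Wnt signalling genes 14 were called higher, 12 over 2-fold, and 7 lower, 2 over 2-fold, beside 63.5% of all genes called higher and 15.4% over 2-fold higher, with a median of 1.14, and 13 were higher and 10 lower after centring. Wnt4 was at least 7.41-fold higher, and Wnt7b had 9.0, 9.11 and 9.29 in hippocampus and 6.30, 6.47 and 6.99 in striatum (2.6 ± 0.04). Wnt2 (-3.50) and the receptor Fzd5 (-2.85) were the 2 genes over 2-fold lower. Of 16 Eph receptors and ephrins, guidance cues of growing axons, 10 were higher, 7 over 2-fold, and 5 lower, 2 over 2-fold. The share of all genes called higher was 63.5%, and after centring 9 of the list were higher and 6 lower. Epha5 had 11.25, 11.50 and 11.85 in hippocampus and 7.44, 8.15 and 9.39 in striatum (3.29 ± 0.12), and Epha8 was at least 5.84-fold lower. Of 25 semaphorins, plexins and neuropilins 16 were higher, 8 over 2-fold, and 7 lower, 4 over 2-fold. This too stands beside 63.5% of all genes, and after centring 15 were higher and 9 lower. The ligand and receptor of one pair went opposite ways: Sema3f had 3.35, 3.48 and 3.73 in hippocampus and 7.28, 7.94 and 8.26 in striatum (-4.40 ± 0.06), and its receptor Nrp2 had 9.42, 9.83 and 10.02 in hippocampus and 2.77, 3.06 and 4.56 in striatum (6.46 ± 0.10). Cadherins differed less, with 7 of 13 higher and 5 lower, and 2 and 1 of them over 2-fold, or 4 higher and 8 lower after centring.

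Activity-regulated genes did not share a direction: 7 of 19 were called higher, 6 over 2-fold, and 8 lower, 5 over 2-fold, or 7 and 11 after centring. Fos (0.00), Arc (-0.18), Junb (-0.23) and Nptx2 (-0.19) did not pass. Ptgs2, the inducible cyclooxygenase of excitatory neurons, had 8.94, 9.44 and 9.68 in hippocampus and 3.04, 3.20 and 5.59 in striatum (5.77 ± 0.20). Ier2 was at least 5.58-fold higher and Dusp5 higher by 2.54 ± 0.07. Egr2 (-4.26), Npas4 (-2.31) and Inhba (-2.68) were among those lower. Corticosteroid genes numbered 8 higher and 5 lower of 14, or 5 each after centring, and the mineralocorticoid receptor Nr3c2, which is dense in hippocampus, had 11.89, 12.16 and 12.34 in hippocampus and 9.43, 9.84 and 10.16 in striatum (2.27 ± 0.04). Of 12 tested genes of adult neurogenesis, which continues in the dentate gyrus, 10 were higher and 2 lower, beside 63.5% of all genes called higher. Over 2-fold, 4 were higher, and after centring 5 were higher and 4 lower. Neurod1 had 9.80, 10.06 and 10.35 in hippocampus and 2.82, 2.88 and 6.48 in striatum (6.67 ± 0.22), Sox11 differed by 1.07 ± 0.09, and the immature neuron marker Dcx by 0.46.

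Of 14 tested interneuron genes 11 were called higher, 7 over 2-fold, and 2 lower, Npy and Reln (both -0.95). The share of all genes called higher was 63.5%, and after centring 11 of the list were higher and 3 lower. Calb2, the calcium buffer calretinin, was at least 52.8-fold higher, with 8.29, 8.95 and 9.52 in hippocampus and 2.34, 2.39 and 3.04 in striatum. It is also a thalamic marker, and its median in brainstem was 11.48. Kit, a receptor tyrosine kinase, differed by 1.74 ± 0.04, Pvalb, the parvalbumin gene, by 1.79, and Sst, the somatostatin gene, by 0.73.

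Glial lists differed by smaller amounts. None of 12 oligodendrocyte genes was called higher and 11 were lower, 1 over 2-fold, with a median of -0.70. The mean of that list lay between 11.26 and 12.11 on hippocampus arrays and between 11.98 and 12.79 on striatum arrays, with some overlap. Mog, a myelin surface protein, had 9.72, 10.69 and 11.35 in hippocampus and 11.15, 11.58 and 12.04 in striatum (-0.99 ± 0.08, limma adjusted p = 1.36e-12). Gjb1, the oligodendrocyte connexin, differed by -2.20 ± 0.11. Of 17 astrocyte genes 12 were higher, 4 over 2-fold, and 2 lower, beside 63.5% of all genes higher, but 7 and 8 after centring. Gfap, the intermediate filament of astrocytes, had 12.19, 12.55 and 13.06 in hippocampus and 9.34, 10.23 and 11.32 in striatum (2.28 ± 0.11), and Agt, angiotensinogen, differed by 4.38 ± 0.19, so these 2 genes were higher on either scale. Of 11 microglia genes 3 were higher and 8 lower, none over 2-fold, with Csf1r, the receptor that keeps microglia alive, at -0.56 ± 0.03. Precursors of oligodendrocytes had 3 of 8 genes higher and 3 lower, or 2 and 5 after centring, and vessel cells 4 of 9 higher and 1 lower, or 2 and 6 after centring.

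Tissue that borders the dissected regions also differed. Of 9 tested meningeal genes 8 were called higher, all over 2-fold, and 1 lower, with a median of 2.41, and the mean of the meningeal list lay between 5.09 and 6.38 on hippocampus arrays and between 3.28 and 3.78 on striatum arrays. The collagen gene Col1a2 was at least 13-fold higher, with 6.37, 6.88 and 7.39 in hippocampus and 2.56, 2.73 and 2.82 in striatum. Among 9 thalamic markers 7 were over 2-fold higher and 2 lower, and the list mean ran between 7.40 and 8.09 in hippocampus and between 5.4 and 6.30 in striatum. Ntng1, an axon adhesion protein of thalamic neurons, differed by 3.6 ± 0.12. Ependymal genes leaned the other way, with 5 of 8 lower, 2 over 2-fold, and Tmem212 was at least 2.16-fold lower. Cortex markers split, 4 higher and 5 lower of 10, as did those of septum and globus pallidus, 4 and 3 of 7, and of hypothalamus and amygdala, 3 and 2 of 5. The lowest of the cortex markers, Foxp2 (-6.49), also stands in the spiny neuron list. The part of meninges, thalamus or ependyma in other differences was not tested.

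Choroid plexus varied among arrays far more than between tissues. The mean of its list ranged from 3.89 to 7.07 on hippocampus arrays, with a median of 4.49, and from 3.78 to 7.61 on striatum arrays, with a median of 4.36. Ttr, the transthyretin gene that choroid plexus expresses strongly, had 11.18, 14.47 and 16.25 in hippocampus and 11.91, 15.04 and 16.24 in striatum (-0.29 ± 0.57, limma adjusted p = 0.635). Of 9 tested choroid genes, Kl, the klotho gene, was called higher (3.16 ± 0.59) and Clic6 lower (-2.48 ± 0.31). Without the 8 hippocampus and 7 striatum arrays with a choroid mean over 5, 1955 genes were over 2-fold higher and 846 over 2-fold lower in hippocampus.

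**Figure D4:**
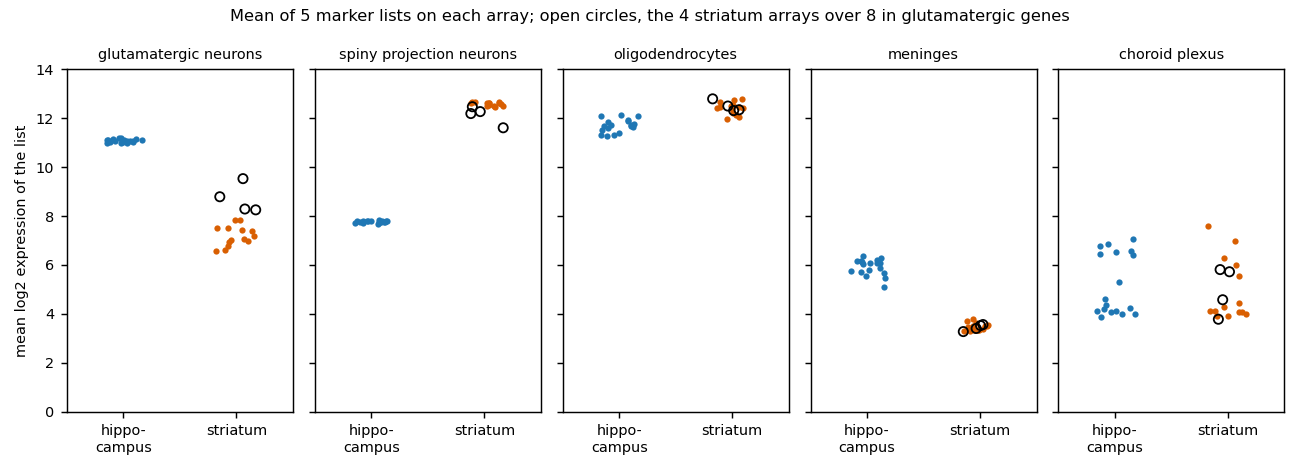
Mean log2 level of 5 marker lists on each hippocampus array (blue) and striatum array (orange); open circles mark the 4 striatum arrays with a glutamatergic mean over 8. Glutamatergic, spiny neuron and meningeal means separated the tissues on every array, oligodendrocyte means overlapped slightly, and choroid plexus means spread over both tissues alike.

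Ribosomal and respiratory chain genes gave no difference over 2-fold. Of 19 cytosolic ribosomal protein genes 13 were called higher and 2 lower, with a median of 0.14, and of 31 respiratory chain genes 24 were higher and 4 lower, with a median of 0.18, both below the 0.25 of all genes. After centring the direction turned, to 1 higher and 14 lower with a median of -0.22 for ribosomal genes and to 3 higher and 20 lower with a median of -0.19 for the respiratory chain. Uqcrc2, a core subunit of complex III, had 14.23, 14.44 and 14.63 in hippocampus and 13.24, 13.62 and 13.94 in striatum (0.81 ± 0.05).

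The tissue difference depended on strain for 1281 of 12788 genes (10%) by the F test of limma at an adjusted p under 0.05. That count was 2329 without the tested C57L/J striatum array and 231 without strain C3H HeJ. The C57L/J striatum arrays left in the fit with 2329, untested arrays 1 and 2, are among the 4 with a glutamatergic mean over 8. Their means were 8.79 and 9.53, against 7.01 on the tested array, so in C57L/J striatum strain cannot be told apart from these raised levels. The 6 genes with the smallest p were each well above the low end of the scale in 1 or 2 strains, in 1 or both of these tissues, and lay near it in the other strains. Whether the strains differ in sequence under these probe sets was not tested. Lamb3, a chain of the basement membrane protein laminin, averaged 2.41 ± 0.01 in hippocampus and 7.08 ± 0.26 in striatum of BalbC/J mice (SD, 3 arrays each), a difference of -4.66, against differences of -0.24 to -0.08 in the other 5 strains. Sv2c, a synaptic vesicle protein, averaged 2.20 in hippocampus and 7.09 in striatum of C3H HeJ and 2.19 in hippocampus and 6.39 in striatum of BalbC/J, while the other 4 strains had differences between -0.16 and -0.12. In brainstem, Sv2c averaged 7.17 in C3H HeJ and 7.42 in BalbC/J and 3.28 to 3.69 in the other strains, so those 2 strains stood apart there too.

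Cldn23, a tight junction claudin, averaged 2.56 in hippocampus and 7.18 in striatum of C3H HeJ and 2.54 in hippocampus and 3.53 in striatum of BalbC/J. Insyn2b averaged 3.18 in hippocampus and 6.73 in striatum of C3H HeJ, a difference of -3.55, against -0.83 to -0.25 elsewhere. Both were striatal in C3H HeJ. Baiap2l1, an actin regulator of the I-BAR family, went the other way, with 9.74 ± 0.18 in hippocampus and 3.03 ± 0.04 in striatum of C3H HeJ and 10.25 ± 0.12 in hippocampus and 3.88 ± 1.22 in striatum of BalbC/J. Its differences in the other 4 strains lay between -0.78 and -0.76, at levels near the bottom of the scale in both tissues. AI506816 averaged 8.03 in hippocampus and 5.09 in striatum of BalbC/J, a difference of 2.94, and -0.28 to -0.26 separated the tissues elsewhere. Of these 6 genes, Baiap2l1 alone had a second probe set, which gave a tissue difference over all strains of 2.26 beside 1.67.

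Among the genes named above, C1ql2 also depended on strain (limma adjusted p = 2.33e-09). Its striatum means lay between 2.06 and 2.11 in all strains, and its hippocampus mean was 10.37 in C57BL6/J, 10.06 in C57BL10/J, 10.04 in C57BLKS/J, 8.76 in C57L/J, 8.74 in BalbC/J and 8.59 in C3H HeJ. By strain, 6 of the 14 granule cell markers, 3 of the 24 spiny neuron genes and 0 of the 16 glutamatergic genes were called, beside 10% of all genes. Pdxdc1, the decarboxylase-domain gene named in the study's title, had 7.20, 8.56 and 9.07 in hippocampus and 6.45, 8.68 and 8.99 in striatum. Its tissue difference of 0.21 ± 0.10 (limma adjusted p = 0.0429) turned to -0.16 after centring, and over the strains it ran from 0.85 in C3H HeJ to -0.21 in C57BLKS/J (F test of limma, adjusted p = 0.0489). Its other 3 probe sets gave tissue differences of 0.18, 0.15 and -0.38.

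**Figure D5:**
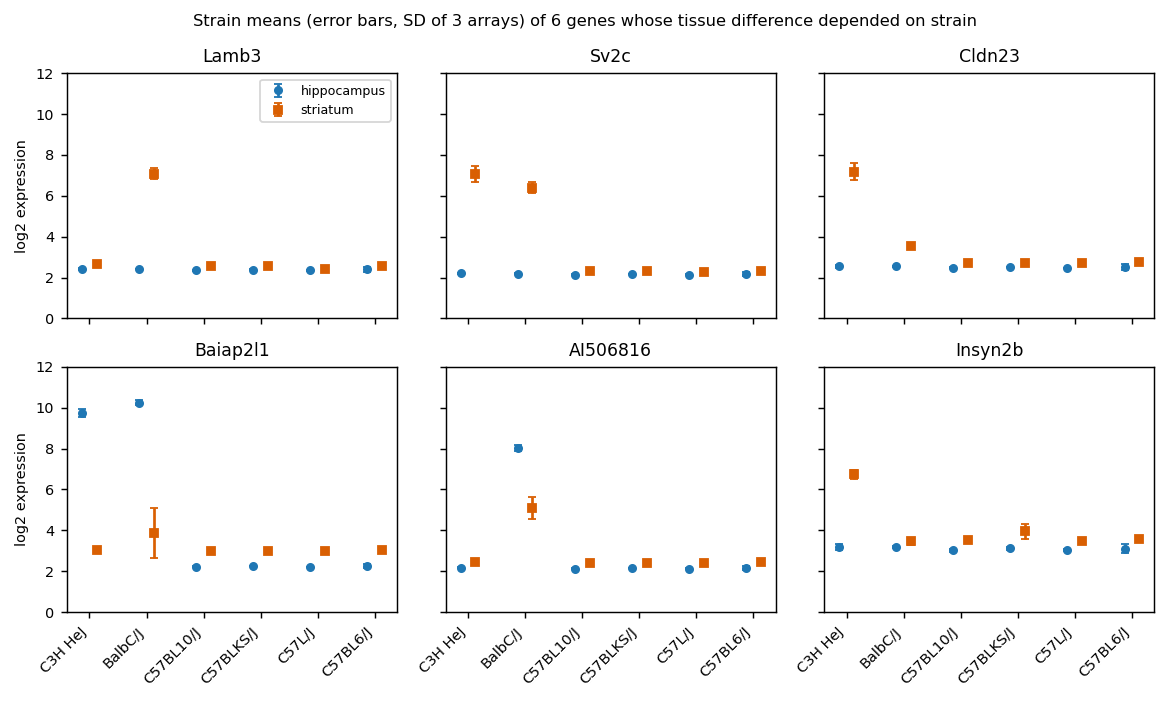
Mean log2 level in hippocampus (blue circles) and striatum (orange squares) of each strain, with the SD of 3 arrays as error bars, for the 6 genes whose tissue difference depended most on strain. In each panel 1 or 2 strains, C3H HeJ or BalbC/J or both, separate the tissues by 2.94 or more, and the other strains lie near the bottom of the scale.

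Testing for prepulse inhibition did not change the tissue difference of any gene past the threshold. With limma, 0 of 12788 genes passed at an adjusted p under 0.05, and 491 (3.84%) had an unadjusted p under 0.05. Gli2, a transcription factor of hedgehog signalling, had the smallest p (0.000265, adjusted p = 0.999). Its difference, hippocampus minus striatum, was 1.72 in tested and 2.17 in untested mice. The next were AW551984, with 3.16 in tested and 3.47 in untested mice, and Tnrc18, with 0.10 in tested and 0.36 in untested mice.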

How the data were processed

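Values were deposited by the authors as log2 expression per probe set of an Affymetrix mouse 3' array. The submitters' processing notes name R 2.6.1, affy 1.16.0, RMA, GCRMA 2.10.0 and limma 2.12.0. Not given in the sources used here were the choice between RMA and GCRMA for these values, hybridization batches and scan dates. The lowest value of an array lay between -0.20 and -0.15 in hippocampus and between -0.02 and 0.03 in striatum, and whether the tissues were normalized together is not stated in those sources.

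Of 45101 probe sets 34945 had 1 gene symbol in the platform annotation, 932 several and 9160 none, and 64 were controls. The brightest probe set over 54 arrays stood for a gene. Genes that exceeded, on 3 or more arrays of either tissue, the 40th percentile of the array were fitted with limma 3.58.1 in R 4.3.3 (tissue, strain and testing; intensity trend; two-sided; Benjamini-Hochberg adjustment over all tested genes; called at an adjusted p under 0.05). Interaction terms tested dependence on strain and testing. The fit was checked on simulated data. "At least" folds compare the higher tissue with, per array, the higher of the dim value and the 40th percentile. They were computed on the deposited scale only, so they too depend on the scale of the arrays. The number of arrays limits the precision.

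Arrays were grouped by their labels. The comparison, its 47 gene lists and the rule for named genes were chosen with earlier results of these data known. The rule took the 15 highest and 15 lowest called genes without overlap, 4 members per list by smallest p, 6 genes for strain, 3 for testing, Pdxdc1, and all dopamine, neuropeptide and choroid genes. Other list members named here were chosen after their values were seen. Median centring, quantile normalization, a floor, other filters, the second probe set, replicate block and left-out arrays were tried as alternatives.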

Additional observations from a re-analysis of the deposited data

Results flagged for a closer look

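The difference between hippocampus and striatum varied among strains most clearly for 6 genes, by the F test of limma for strain by tissue. The adjusted p was 2.33e-20 for Lamb3, 1.52e-19 for Sv2c, 6.77e-18 for Cldn23, 3.07e-16 for Baiap2l1, 1.66e-12 for AI506816 and 1.66e-12 for Insyn2b. In each of them the strains that stood apart were C3H HeJ, BalbC/J or both. Lamb3, Sv2c, Cldn23 and Insyn2b were lower in hippocampus in those strains, and Baiap2l1 and AI506816 were higher.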

How the results depend on the processing

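The balance of higher and lower genes changed with array scale. Genes called higher in hippocampus numbered 8125, but 4455 after centring each array on its median, where genes called lower numbered 6425, those over 2-fold 1310 higher and 1289 lower, and those that depended on strain 812. With quantile normalization 5576 genes were called lower, and with no filter 4847. On the second brightest probe set, which 6159 tested genes had, 3849 were higher and 1558 lower, 1094 and 460 over 2-fold. Of 1133 genes called over 2-fold with such a second probe set, 77 had the opposite sign there. Leaving out each array in turn gave 7987 to 8225 genes higher, 3020 to 3075 lower, 1955 to 1989 over 2-fold higher, 803 to 829 over 2-fold lower, and 0 to 0 dependent on testing. The count dependent on strain (1281) ran from 902 without the tested C3H HeJ hippocampus array to 2329 without the tested C57L/J striatum array, and was 231 without strain C3H HeJ. In the fit with 2329, the C57L/J striatum arrays left were untested arrays 1 and 2, both high in glutamatergic genes. Directions turned for Maob (-0.083), Pdxdc1 (-0.155), Tnrc18 (-0.087), Gria2 (-0.015), Gria3 (-0.107), Gria4 (-0.142), Chrm1 (-0.181) and Chrnb2 (-0.20) after centring, for Pdxdc1 (-0.084), Gria4 (-0.042), Chrm1 (-0.066) and Chrnb2 (-0.094) with quantile normalization, for Gria4 (-0.031), Chrm1 (-1.76) and Tnrc18 (-0.509) on the second probe set, for Chrm1 (-0.791) and Tnrc18 (-0.0086) on the mean of probe sets, and for AI506816 (-0.27) without BalbC/J. The cause was not tested. Of 3285 values for 189 named genes under the alternatives, 3199 kept their side of the threshold, and those past it kept direction too. A change of sign short of the threshold in both fits was counted among these. With replicate number as a block, 8025 genes were higher and 3013 lower, 903 depended on strain and 0 on testing. Same-numbered arrays of a strain showed no shared deviation at the median (18 pairs, r from -0.40 to 0.41, median r = 0.018, 4 over 0.1). These correlations cannot show whether same-numbered arrays share mice, since shared mice need not deviate alike in both tissues.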
